A study of Mus musculus with 6 samples.

Results

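The translation initiation and elongation factors of the mouse choroid plexus (ChP) were taken as every gene of the deposited table whose symbol begins with Eif and a number from 1 to 6, or with Eef and 1 or 2. This rule found 64 of the 24354 genes, 55 of them Eif and 9 Eef. It uses names and no measured value, and it takes in regulators and modifying enzymes of the factors beside the factors themselves. At a mean above 1 FPKM, the sequenced fragments of a gene scaled by transcript length and library size, 59 of the 64 could be tested. The other 5 were Eef1a2, Eif2s3y, Eif3j1, Eif3j2 and Eif4e1b.

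The values come from translating ribosome affinity purification (TRAP), in which ribosomes carrying a tagged protein are pulled from tissue and the mRNAs on them are sequenced. All animals came from a Foxj1:Cre line crossed with EGFP:L10a mice, so that Cre under the promoter of Foxj1, a regulator of motile cilia, switched on the tagged ribosomal protein in ChP epithelial cells. There were 3 adult samples, labelled 60 days, and 3 samples of embryonic day 16.5 (E16.5), with no treatment at either age, and the comparison asks which mRNAs are on ribosomes at each age. By the study's methods each sample was a pool of lateral ventricle ChP from several mice or litters, whereas the series text gives 3 mice per age, so the number of animals behind a sample is uncertain and p-values measure the spread between these samples. In such samples, fewer epithelial cells with tagged ribosomes, less of an mRNA per cell and less of it on ribosomes cannot be told apart. No sample of total RNA stands beside them.

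Initiation factors bring the small ribosomal subunit, the initiator tRNA and the capped end of an mRNA together. eIF2 carries the initiator tRNA and is recharged by eIF2B, eIF3 is the large scaffold on the small subunit, and eIF4E, eIF4G and eIF4A form the complex that binds the cap and unwinds the leader. Elongation factors then work at every codon: eEF1A delivers aminoacyl tRNAs and is recharged by eEF1B, and eEF2 moves the ribosome along. The ChP epithelium is a secretory tissue that makes cerebrospinal fluid and large amounts of secreted protein, transthyretin above all.

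Many mRNAs of the translation machinery begin with a run of pyrimidines that starts with C, the terminal oligopyrimidine motif, through which mTORC1 and LARP1 govern their translation. The annotated starts are therefore shown for the members on which the results turn. Each window runs from 10 bases before to 20 bases from the annotated start in RefSeq (GRCm38.p6), 5′ to 3′ on the strand of the gene. Capitals mark a C followed by at least 4 bases that are C or T, beginning within 5 bases of the start. A window in lower case has no run beginning there, although the last bases of the Eef2 window make up one further on. The windows lie at chr9:78481705-78481734 (- strand) for Eef1a1, chr16:20672717-20672746 (+ strand) for Eif4g1, chr16:20498807-20498836 (+ strand) for Eif2b5, chr2:105017008-105017037 (- strand) for Eif3m, chr11:69672404-69672433 (- strand) for Eif4a1 and chr10:81176621-81176650 (+ strand) for Eef2.
Eef1a1: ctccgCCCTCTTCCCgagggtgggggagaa
Eif4g1: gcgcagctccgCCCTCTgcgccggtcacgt
Eif2b5: ctctttCTCTCCCTgcaactacaccttcgc
Eif3m: cggtcggcgtgtttctggatcggagcgtct
Eif4a1: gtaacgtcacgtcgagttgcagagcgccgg
Eef2: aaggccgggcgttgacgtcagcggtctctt
Such a run stood at an annotated start of 14 of the 50 members with an entry (28%), beside 5718 of 27025 genes of the same table (21.2%). Only the coding strand was searched, and the match is a description of the annotated letters. Eef1a1, the member with the highest mean over all samples, had the run, as did Eif4g1 and Eif2b5, the only members whose 3 adult samples all lay above the 3 E16.5 samples. Members with the run also lay the other way: all adult samples were below for Eef1a1, Eif1ad, Eif2b2, Eif2s3x, Eif3b and Eif3l. In the remaining members with the run the ages overlapped.

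Of the 59 factors tested, 4 passed limma at a Benjamini-Hochberg adjusted p of 0.05, and all 4 were higher at E16.5: Eef1a1, Eef1g, Eif4a1 and Eif3m. That is 6.78% of the members, beside a background of 8.83% of the 11601 genes tested that were called higher at E16.5. No factor was called higher in the adult by limma (background 2.12%), and 2 had an unadjusted p below 0.05 in that direction, against 5.34% of all genes. In GRCm38 the 4 genes span chr9:78478449-78489151 (Eef1a1), chr19:8967041-8978479 (Eef1g), chr11:69666936-69672423 (Eif4a1) and chr2:104999656-105017080 (Eif3m). The calls depended on single libraries: with adult replicate 1, 2 or 3 left out, 2, 13 and 12 members were called higher at E16.5, and without any one of the E16.5 replicates none was. A share of calls below the background is no result about the factors as a group.

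What the factors showed more widely was a lower adult level without a call. The change was negative for 50 members and positive for 9, with a median of -1.20 on the log2(FPKM + 1) scale (adult minus E16.5), beside -0.86 over all genes tested. Compared with that median of all genes, 40 members lay below and 19 above. All 3 adult samples were below all 3 E16.5 samples for 31 members (52.5%), against a background of 31% of all genes. At an unadjusted p below 0.05, 30 members were higher at E16.5 (50.8%), against a background of 25.9%. The spread also differed between the ages: the median SD of a member over 3 samples was 0.796 in the adult and 0.352 at E16.5 on this log2 scale. The median was negative under each scaling tried, from -1.996 with the same sum of FPKM in each sample to -0.63 with quantile normalization, and stayed under that of all genes in each of them.

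**Figure D1:**
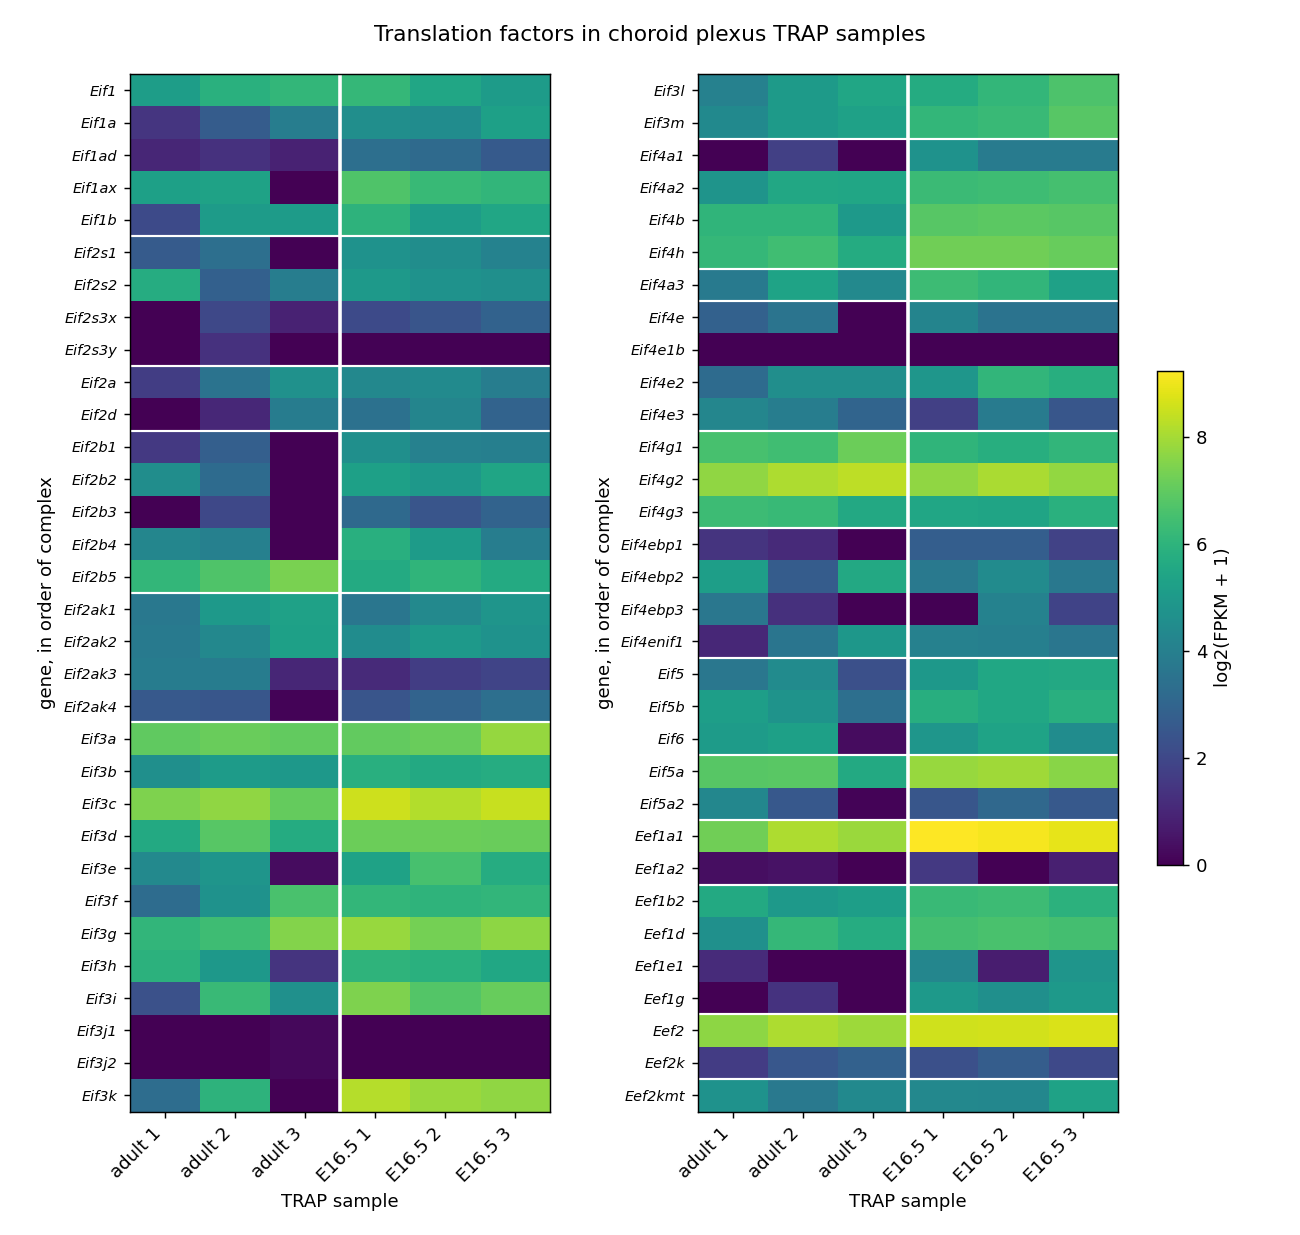
Level of each of the 64 translation factors in the 6 TRAP samples, as log2(FPKM + 1), with genes in rows by complex, white lines between complexes, and samples in columns. Most rows are brighter in the E16.5 columns, Eif4g1, Eif4g2 and Eif2b5 are bright in the adult columns too, and adult replicate 3 holds the most dark cells, with 13 tested members listed at 0.

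These samples differed in more than age. One read in a kilobase was worth between 0.114 and 0.323 FPKM in the adult samples and between 0.0641 and 0.0801 FPKM at E16.5, so the adult libraries were the shallower. The small RNA gene Mir6236 took 32.7% to 51.7% of the summed FPKM in the adult and 13.3% to 15% at E16.5. Tested members were listed at 0 in adult replicates 1, 2 and 3 for 5, 1 and 13 genes, and at E16.5 for 1, 0 and 0 genes, and a 0 in this table can be a failed estimate, since factors that every cell uses are among them. For the 44 members above 0 in every sample, the median change was -0.99, beside -0.38 for the 6562 such genes, and 21 of them had all adult samples below (47.7%, against 25.3%). The members' summed FPKM came to 2185, 2856 and 2555 in the adult and 4681, 4479 and 4447 at E16.5. As a share of all FPKM without Mir6236 they made up 0.421% to 0.515% in the adult and 0.862% to 1.14% at E16.5. The part of depth and of Mir6236 in the results was not tested.

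The separation was most frequent among abundant factors. At a mean above 50 FPKM, 15 of 23 members had all adult samples below (65.2%), beside 44.8% of the 1375 genes of that level. Between 10 and 50 FPKM it was 11 of 22 (50%, against 30.5%), and between 1 and 10 FPKM 5 of 14 (35.7%, against 27.9%). By level per transcript length, Eef1a1, Eef2, Eif3c and Eif3k led at E16.5, while Eif4g2, Eef2, Eef1a1 and Eif3c led in the adult.

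**Figure D2:**
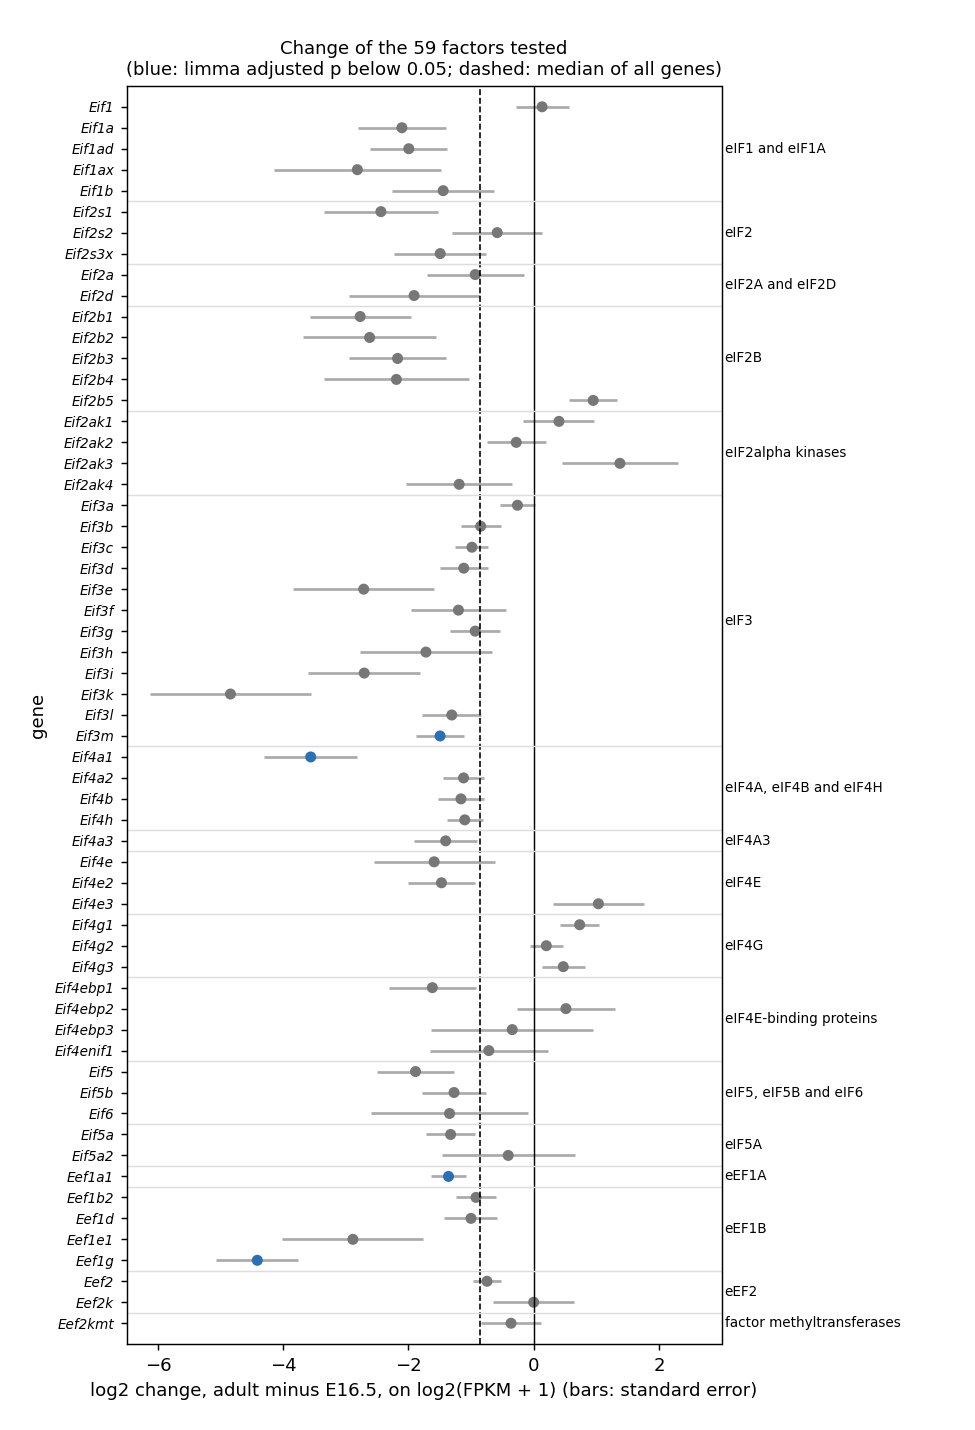
Change of each of the 59 tested factors, adult minus E16.5 on the log2(FPKM + 1) scale, with the standard error of limma as bars, grouped by complex, and the 4 members that passed in blue. Most points lie left of 0, and the 3 eIF4G genes lie right of it in these values but left of it when each sample is scaled to the same sum of FPKM. The dashed line is the median of all genes, -0.86.

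The elongation factors held both the member with the highest mean over all samples and the member with the lowest adjusted p. Eef1a1, which encodes the ubiquitous form of the factor that delivers aminoacyl tRNAs, stood at 152, 274 and 232 FPKM in the adult samples and 609.9, 564 and 479 FPKM at E16.5. The ages did not overlap, and the means were 219 ± 61.7 FPKM in the adult and 551 ± 66.2 FPKM at E16.5 (mean ± SD, n = 3), so that the adult mean was 0.398 of that at E16.5 (log2 change -1.36, SE 0.28, limma adjusted p = 0.0291). Relative to the median of all genes the change was -0.50. Its paralogue Eef1a2, the form of muscle and neurons, was near 0 throughout, at 0.277, 0.367 and 0 FPKM in the adult samples and 1.9, 0 and 0.772 FPKM at E16.5.

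Eef1g encodes the gamma subunit of eEF1B, which anchors the exchange factor for eEF1A. Its level was 0, 1.57 and 0 FPKM in the adult samples and 31.2, 23.4 and 30.8 FPKM at E16.5. Only adult replicate 2 had a value above 0, and it lay far below every E16.5 sample (log2 change -4.41, SE 0.65, limma adjusted p = 0.0108), although with adult values at 0 the size of the change follows the pseudocount and ran from -9.03 to -3.51 over the alternatives. Because a 0 in this table can be a failed estimate, the call of Eef1g is itself uncertain. The other subunits of eEF1B were not called. Eef1b2, which encodes a subunit with exchange activity, stood at 48.5, 31 and 35.5 FPKM in the adult samples and 77, 80.7 and 60.6 FPKM at E16.5, and Eef1d, the delta subunit, at 24.1, 70.8 and 52.7 FPKM in the adult samples and 88, 96.6 and 88.4 FPKM at E16.5. Both were without overlap (log2 change -0.92, SE 0.32, limma adjusted p = 0.104 for Eef1b2 and -1.002, 0.42 and 0.155 for Eef1d). As a share of the summed FPKM of Eef1b2, Eef1d, Eef1g and Eef1e1, Eef1g made up 0, 1.52 and 0% in the adult and 14.6, 11.6 and 14.9% at E16.5. Eef1e1, whose product sits in the multisynthetase complex, varied within E16.5 itself, at 17.9, 0.68 and 27.3 FPKM, and was 1.22, 0 and 0 FPKM in the adult.

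Eef2, the translocase, had the second highest mean, in the adult and at E16.5. It measured 202, 275 and 240.2 FPKM in the adult samples and 384, 393 and 419.5 FPKM at E16.5, with the adult samples the lower in every comparison (log2 change -0.75, SE 0.23, limma adjusted p = 0.0754). Its means were 239 ± 36.7 FPKM in the adult and 399 ± 18.5 FPKM at E16.5 (mean ± SD, n = 3), an adult level of 0.599 of that at E16.5, and its change lay 0.11 above the median change of all genes. Eef2k, the kinase that inhibits eEF2, ranged over 2.15, 4.73 and 6.25 FPKM in the adult samples and 3.76, 5.68 and 3.11 FPKM at E16.5, with overlapping ages (limma adjusted p = 1). Eef2kmt, which methylates eEF2, overlapped as well, at 25.2, 12.5 and 20.1 FPKM in the adult samples and 19.1, 18.6 and 39.3 FPKM at E16.5 (limma adjusted p = 0.627).

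**Figure D3:**
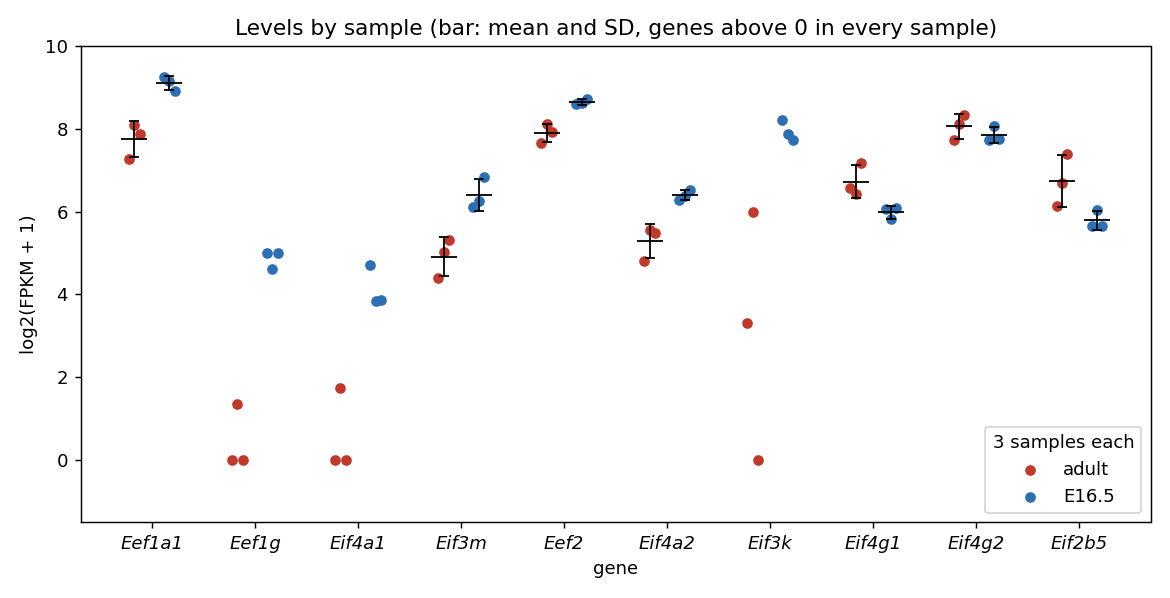
Levels of 10 factors in each sample as log2(FPKM + 1), red for the 3 adult and blue for the 3 E16.5 samples. Horizontal marks and bars give the mean and SD and are drawn only for genes above 0 in every sample. Adult points lie below all E16.5 points for the first 7 genes and above them for Eif4g1 and Eif2b5, and the ages overlap for Eif4g2.

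Among the factors at the cap, the genes for the helicase and its partners separated the ages completely, and those for the eIF4G scaffold did not follow them. Eif4a1, one of the paired genes for the helicase eIF4A, was listed at 0, 2.37 and 0 FPKM in the adult samples and 25.3, 13.4 and 13.6 FPKM at E16.5. It was called higher at E16.5 (log2 change -3.56, SE 0.75, limma adjusted p = 0.0294, with -8.07 to -2.39 over the alternatives), and 2 of its 3 adult values were 0. Since such a 0 can be a failed estimate, this call is uncertain. The paralogue Eif4a2 was the more abundant at both ages, with 27, 46 and 43.7 FPKM in the adult samples and 77.3, 82.3 and 91.5 FPKM at E16.5. Its adult samples were again all the lower, at means of 38.9 ± 10.4 FPKM in the adult and 83.7 ± 7.23 FPKM at E16.5 (mean ± SD, n = 3), but it missed the threshold (log2 change -1.12, SE 0.33, limma adjusted p = 0.0665).

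Eif4b and Eif4h, which encode proteins that stimulate the helicase, separated the ages in the same way. Eif4h stood at 71.4, 83.4 and 50.7 FPKM in the adult samples and 150.0, 150.1 and 136 FPKM at E16.5 and lay just outside the threshold (log2 change -1.101, SE 0.29, limma adjusted p = 0.0505). Eif4b had 64.9, 66.3 and 30.7 FPKM in the adult samples and 114, 119 and 113 FPKM at E16.5 (log2 change -1.16, SE 0.36, limma adjusted p = 0.079). In all 4 genes of this group the adult samples were the lower, and the change was negative under each scaling tried. Eif4a3, the related helicase of the exon junction complex, stood at 13, 40.4 and 19.4 FPKM in the adult samples and 80.8, 66.7 and 38.7 FPKM at E16.5, where the highest adult sample passed the lowest at E16.5 (limma adjusted p = 0.11).

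The 3 eIF4G genes all had a positive change, in contrast to most members, except that each turned negative when the samples were set to the same sum of FPKM. Eif4g1, the principal scaffold, stood at 93.4, 85 and 143 FPKM in the adult samples and 65.6, 55.1 and 67 FPKM at E16.5. Every adult sample was above every E16.5 sample, which held for 7.39% of all genes, but the difference did not pass (log2 change 0.73, SE 0.31, limma adjusted p = 0.153). Eif4g2, a relative that does not bind eIF4E, was the most abundant member in the adult, at 212, 274 and 321 FPKM in the adult samples and 211, 268 and 216 FPKM at E16.5, and its ages overlapped (log2 change 0.20, SE 0.26, limma adjusted p = 0.613). Eif4g3 overlapped too, at 81.2, 73.6 and 47.4 FPKM in the adult samples and 43.8, 40.9 and 58.3 FPKM at E16.5 (log2 change 0.47, SE 0.34, limma adjusted p = 0.372). Relative to the median of all genes the changes were 1.59, 1.06 and 1.33 for Eif4g1, Eif4g2 and Eif4g3. Within a sample, the share of each in the summed FPKM of the eIF4G genes overlapped between the ages.

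The cap-binding proteins and their repressors gave no call by limma, with Eif4e2 and Eif4ebp1 at an unadjusted p below 0.05. Eif4e, the cap-binding factor itself, was low, at 6.38, 10.9 and 0 FPKM in the adult samples and 17.2, 10.6 and 10.4 FPKM at E16.5, with overlap (limma adjusted p = 0.294). Eif4e2, a cap-binding homologue tied to repression, was higher at each age, with 8.51, 22.7 and 22.7 FPKM in the adult samples and 28.4, 67.7 and 55.5 FPKM at E16.5, and its adult samples were the lower ones (log2 change -1.47, SE 0.53, limma adjusted p = 0.111). Eif4e3 went the other way in its means and overlapped, at 18.1, 14.1 and 6.92 FPKM in the adult samples and 2.34, 13.5 and 4.52 FPKM at E16.5 (log2 change 1.03, SE 0.73, limma adjusted p = 0.359). Its share of the summed FPKM of the eIF4E genes was 54.9, 29.6 and 23.4% in the adult and 4.88, 14.7 and 6.42% at E16.5, without overlap. Eif4e1b, the form of the egg, was listed at 0 in every sample.

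Eif4ebp1 and Eif4ebp2 encode proteins that hold eIF4E away from eIF4G until mTORC1 phosphorylates them. Eif4ebp1 had all adult samples below, at 1.64, 1.16 and 0 FPKM in the adult samples and 5.84, 5.85 and 2.53 FPKM at E16.5 (limma adjusted p = 0.157). Eif4ebp2 was the more abundant, at 35.3, 5.41 and 47 FPKM in the adult samples and 12.3, 21.3 and 11.9 FPKM at E16.5, and scattered in the adult on both sides of the E16.5 values (limma adjusted p = 0.676). Eif4ebp3 and Eif4enif1, a protein that carries eIF4E to the nucleus and to P-bodies, overlapped between the ages.

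eIF2 and its exchange factor eIF2B carry the initiator tRNA cycle, and the genes of eIF2B had changes of both signs. Eif2b5, which encodes the catalytic epsilon subunit, stood at 68.9, 102 and 168 FPKM in the adult samples and 49.6, 65.3 and 49.3 FPKM at E16.5. All adult samples were above all E16.5 samples, with means of 113 ± 50.5 FPKM in the adult and 54.7 ± 9.13 FPKM at E16.5 (mean ± SD, n = 3), and the difference did not pass (log2 change 0.95, SE 0.38, limma adjusted p = 0.14). The direction was the same in all 19 alternatives, although the change ran from 0.13, with the same sum of FPKM in each sample, to 1.36. The other 4 subunits had negative changes, from -2.77 for Eif2b1 to -2.17 for Eif2b3, each listed at 0 in adult replicate 3 and none called. Eif2b1, for instance, had 1.91, 5.91 and 0 FPKM in the adult samples and 23.1, 15.6 and 15 FPKM at E16.5 (log2 change -2.77, SE 0.81, limma adjusted p = 0.0665). Of the summed FPKM of the eIF2B genes, Eif2b5 made up 62.2, 75.7 and 100% in the adult and 28.4, 44.2 and 38.7% at E16.5, without overlap. The value of 100% in adult replicate 3 comes from the zeros of the other subunits, and the samples without zeros in those subunits were adult replicate 2 and the 3 of E16.5.

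**Figure D4:**
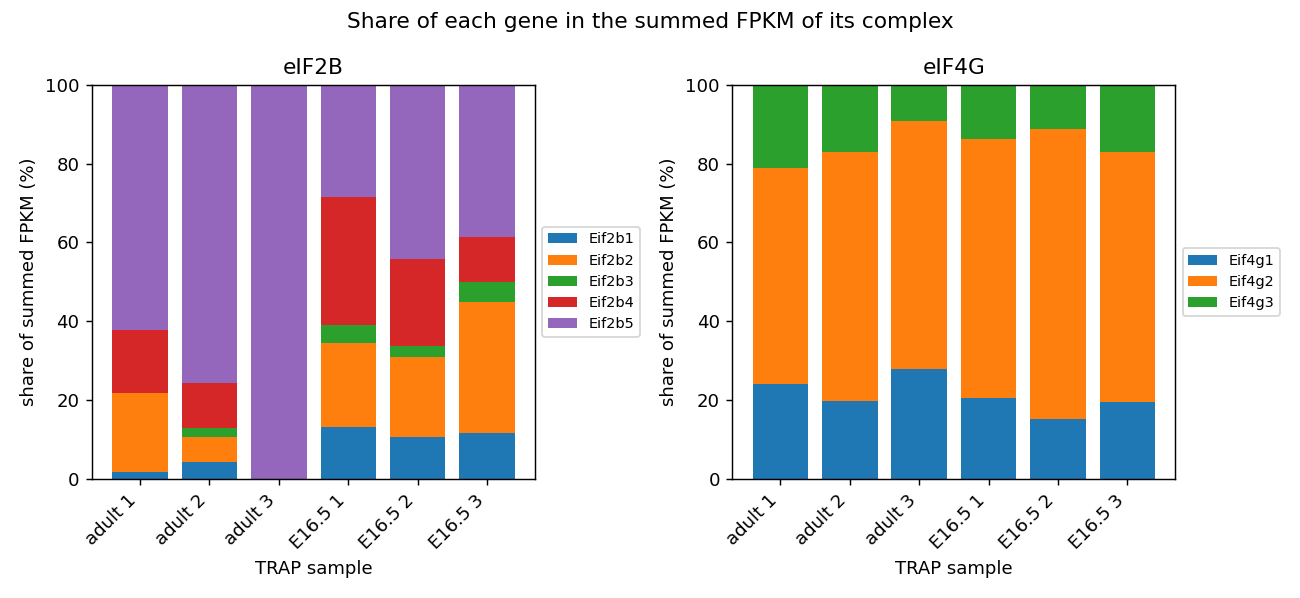
Share of each gene in the summed FPKM of the 5 eIF2B genes (left) and the 3 eIF4G genes (right), in percent, for each of the 6 samples. Eif2b5 takes 62.2% to 100% of the eIF2B sum in the adult bars and 28.4% to 44.2% in the E16.5 bars, while the eIF4G bars look alike at both ages.

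Shares within a complex were examined for 43 genes, a choice made after the values had been seen. Their exact permutation tests (two-sided) could not go below p = 0.1 with 3 samples against 3, and the adjusted p was 0.358 for each share without overlap. They are therefore given as descriptions.

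The 3 eIF2 genes tested all had negative changes, except that Eif2s3x turned positive under quantile normalization and Eif2s2 without adult replicate 2 (0.0818). Eif2s1, the alpha subunit on which stress kinases act, had 5.28, 9.44 and 0 FPKM in the adult samples and 25.4, 22.2 and 16.1 FPKM at E16.5, without overlap (log2 change -2.44, SE 0.90, limma adjusted p = 0.117). Eif2s2, the beta subunit, overlapped, at 52.7, 6.2 and 14.3 FPKM in the adult samples and 30, 25.3 and 23.3 FPKM at E16.5. The gamma subunit has an X-linked and a Y-linked gene. Eif2s3x stood at 0, 3.06 and 0.868 FPKM in the adult samples and 3.2, 4.39 and 6.49 FPKM at E16.5 (log2 change -1.49, SE 0.74, limma adjusted p = 0.207), with all adult samples below. Eif2s3y stood at 0, 1.51 and 0 FPKM in the adult samples and 0.0508, 0 and 0 FPKM at E16.5, too low to be tested. Among other Y-linked genes, Ddx3y rose, at 81.4, 83.7 and 66.2 FPKM in the adult samples and 0.0539, 13.8 and 0.0611 FPKM at E16.5 (log2 change 4.93, SE 1.02, limma adjusted p = 0.028), as did Uty (limma adjusted p = 0.0441), and Kdm5d lay above in every adult sample without passing (limma adjusted p = 0.102). Xist, the RNA of the inactive X chromosome, was listed at 0 in the adult samples and at 1.19, 0.0891 and 0.189 FPKM at E16.5. Sex and age can therefore not be told apart in these samples, for this pair of genes or for the other factors.

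The 4 kinases that phosphorylate eIF2 alpha all overlapped between the ages. Eif2ak2 (PKR, the sensor of double-stranded RNA) had the highest mean over all samples, although Eif2ak1 was higher in the adult (27.1 against 23 FPKM). Eif2ak2 stood at 12.9, 19.1 and 37 FPKM in the adult samples and 21.9, 30.1 and 25.6 FPKM at E16.5 (limma adjusted p = 0.711). Eif2ak3 (PERK, the sensor of the endoplasmic reticulum) was at 13.9, 14 and 0.988 FPKM in the adult and 1.15, 2.19 and 2.68 FPKM at E16.5. Adult replicates 1 and 2 were several times above every E16.5 sample and replicate 3 was below them all (log2 change 1.38, SE 0.93, limma adjusted p = 0.34), so that the gene was called higher in the adult once replicate 3 was left out (limma adjusted p = 0.0463, with 0.0329 to 0.587 over the alternatives). Eif2ak1 (HRI, which senses heme) and Eif2ak4 (GCN2, which senses uncharged tRNA) had changes of 0.40 and -1.19, the first negative with the same sum of FPKM (-0.39) and the second positive with quantile normalization (0.31). Eif2a and Eif2d, which can bring initiator tRNA without eIF2, overlapped as well, with Eif2a at 2.19, 10.5 and 24.8 FPKM in the adult samples and 19, 20.6 and 14.3 FPKM at E16.5.

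eIF3 is the largest complex, with 14 genes in the table and 12 tested. All 12 changes were negative, except that Eif3a was positive under quantile normalization (0.24) and median-ratio scaling (0.0821), and 8 of the 12 had all adult samples below (66.7%, against 31% of all genes). Eif3m passed, at 20.2, 31.8 and 38.5 FPKM in the adult samples and 68.5, 75.9 and 114 FPKM at E16.5. Its means were 30.1 ± 9.28 FPKM in the adult and 86.1 ± 24.4 FPKM at E16.5 (mean ± SD, n = 3), an adult level of 0.35 of that at E16.5 (log2 change -1.495, SE 0.38, limma adjusted p = 0.0462). Eif3c, a core subunit and the most abundant of the complex, stood at 175, 209.9 and 133 FPKM in the adult samples and 369, 293 and 354 FPKM at E16.5, without overlap and just outside the threshold (log2 change -0.99, SE 0.26, limma adjusted p = 0.0537).

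The widest gap of the complex was in Eif3k, a subunit that not all eukaryotes have. It was at 8.89, 62.3 and 0 FPKM in the adult samples and 295, 234 and 212 FPKM at E16.5. Adult replicate 3 was listed at 0, replicate 2 reached a fraction of the E16.5 values, and with this spread the gene missed the threshold (log2 change -4.84, SE 1.29, limma adjusted p = 0.053). Eif3a, the large scaffold subunit, was at 127, 141 and 129 FPKM in the adult samples and 129, 140.3 and 219.7 FPKM at E16.5, with overlapping ages (log2 change -0.26, SE 0.29, limma adjusted p = 0.553), the smallest change of the complex. Eif3b was without overlap, at 23.3, 33.2 and 29.9 FPKM in the adult samples and 56.3, 48.2 and 51.8 FPKM at E16.5 (limma adjusted p = 0.125).

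A comparison within each sample largely removes the scaling between samples for values well above 1 FPKM, but not for values near 0. Each subunit was therefore set against the median of the 12 subunits of its sample on the log2(FPKM + 1) scale. On this scale Eif3a was 2.496, 1.61 and 1.64 in the adult and 0.45, 0.47 and 0.81 at E16.5, and all adult samples were above. Eif3b also lay above in the adult, at 0.10, -0.44 and -0.44 in the adult and -0.73, -1.05 and -1.25 at E16.5. Eif3k was -1.196, 0.44 and -5.39 in the adult and 1.64, 1.21 and 0.76 at E16.5, with all adult samples below. Its -5.39 in adult replicate 3 comes from a value listed at 0, which can be a failed estimate. The other 9 overlapped, Eif3m among them with a difference of 0.10 between the ages, so that Eif3m kept its place among the subunits while its level passed the test.

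**Figure D5:**
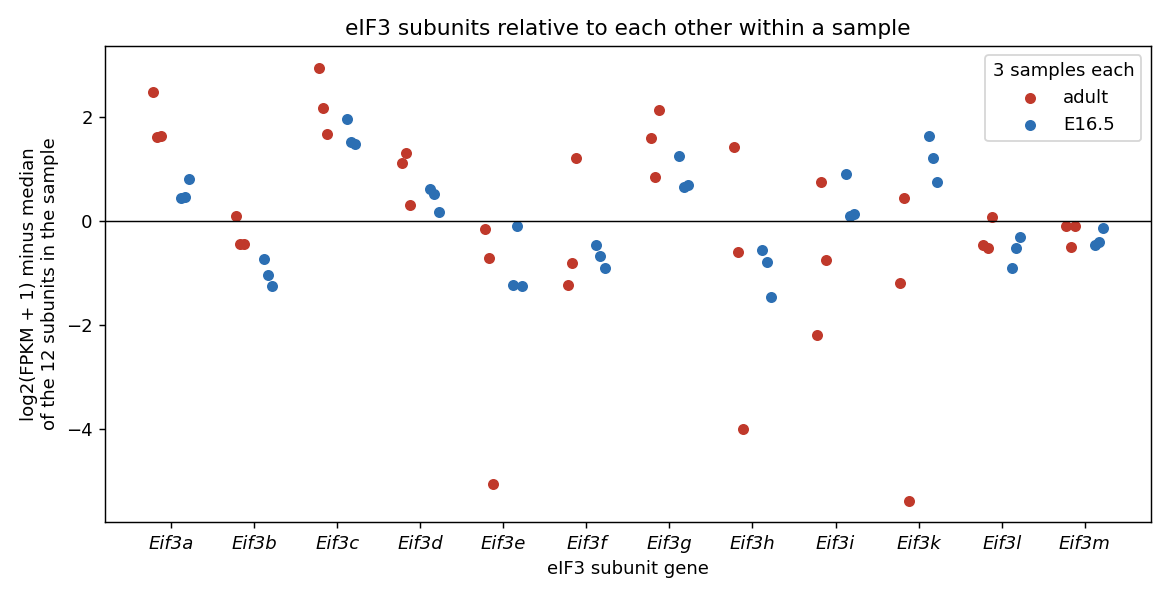
Each of the 12 tested eIF3 subunits on the log2(FPKM + 1) scale relative to the median subunit of the same sample, red for the 3 adult and blue for the 3 E16.5 samples. Eif3a and Eif3b lie higher and Eif3k lower in all adult samples than at E16.5, Eif3m hardly differs, and the adult points of Eif3e, Eif3h and Eif3k spread over several units.

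The remaining initiation factors act at the start codon and at subunit joining. Eif1, which guards start codon choice, was among the 9 with a positive change, at 34.2, 57 and 68.7 FPKM in the adult samples and 70.7, 43.3 and 32.9 FPKM at E16.5, with overlap (log2 change 0.13, SE 0.42, limma adjusted p = 0.847, and negative with the same sum of FPKM). Eif1ax, the X-linked gene of eIF1A, had the highest mean of this group over all samples and at E16.5, while in the adult Eif1 was higher (53.3 against 25.6 FPKM). Eif1ax was at 37.4, 39.5 and 0 FPKM in the adult samples and 103, 74.7 and 67.8 FPKM at E16.5 (log2 change -2.82, SE 1.33, limma adjusted p = 0.191). Eif1a had 1.72, 5.39 and 14.3 FPKM in the adult samples and 23.1, 21.7 and 37.7 FPKM at E16.5 and Eif1b 3.22, 33.2 and 32.5 FPKM in the adult samples and 61.8, 33.9 and 43.5 FPKM at E16.5, both with all adult samples below and neither called. As a share of the group's summed FPKM, Eif1 made up 44.1, 41.8 and 59.1% in the adult and 26.3, 23.8 and 17.6% at E16.5, without overlap.

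Eif5, the GTPase activator of eIF2, and Eif5b, which joins the ribosomal subunits, were without overlap. Eif5b stood at 35.9, 26 and 9.41 FPKM in the adult samples and 55.1, 44.5 and 56.1 FPKM at E16.5 (log2 change -1.27, SE 0.51, limma adjusted p = 0.141). Eif6, which keeps the large subunit free, overlapped, with adult replicate 3 at 0.253 FPKM, without which its change turned from -1.34 to 0.27. Eif5a, the hypusine-bearing factor that relieves stalled ribosomes, was one of the abundant members, at 116, 119 and 48.6 FPKM in the adult samples and 226, 247 and 194 FPKM at E16.5, with means of 94.3 ± 39.6 FPKM in the adult and 222 ± 26.6 FPKM at E16.5 (mean ± SD, n = 3) (log2 change -1.33, SE 0.39, limma adjusted p = 0.0661). Eif5a2, its paralogue, was low and overlapped, at 18.5, 4.89 and 0.0681 FPKM in the adult samples and 4.51, 7.74 and 4.94 FPKM at E16.5.

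For paralogues, the difference of the log2(FPKM + 1) values within a sample was compared between the ages for 12 pairs by exact permutation tests (two-sided), whose smallest p is 0.1 with 3 samples against 3, so that none could pass. In 4 pairs the ages did not overlap, each with an exact p of 0.1 and an adjusted p of 0.3. Eif1 minus Eif1b was 3.06, 0.76 and 1.06 in the adult and 0.19, 0.34 and -0.39 at E16.5. Eif4a1 minus Eif4a2 was -4.81, -3.802 and -5.48 in the adult and -1.57, -2.53 and -2.66 at E16.5, below 0 in every sample and further below in the adult. Eif4e minus Eif4e3 was -1.37, -0.34 and -2.99 in the adult and 2.45, -0.32 and 1.04 at E16.5, so that Eif4e3 was the higher of the pair in every adult sample and in 1 of the E16.5 samples. Eif2s3x minus Eif2s3y was the remaining pair without overlap. The 8 pairs with overlap included Eef1a1 with Eef1a2, Eif5a with Eif5a2, Eif4g1 with Eif4g2 or Eif4g3, Eif4e with Eif4e2, Eif4ebp1 with Eif4ebp2 and Eif1a with Eif1ax. Eif3j1 and Eif3j2 stayed under 0.15 FPKM with nearly equal values in each sample, and 91.8% of the 50-base stretches of Eif3j2 also occur in other genes.

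Reads of 50 bases can be shared with copies of a gene, and all 4 called members have many. The share of their annotated 50-base stretches that also occur in other annotated genes, mostly processed pseudogenes, was 39.4% for Eef1a1, 44.2% for Eef1g, 28.4% for Eif4a1 and 17.2% for Eif3m, beside a median of 0.747% over the members tested. Of the 9 tested members at 15% or more, 4 were called, and of the 50 below 15%, none was, with 25 of them higher at E16.5 and 2 in the adult at an unadjusted p below 0.05. All adult samples were below in 5 of the 9 and in 26 of the 50 (52%). The line at 15% was not planned, and it lies under the share of all 4 called members. No such split was made over all genes, so these counts are only a description. Among the processed pseudogenes that share with these 4 genes only Gm6548, a copy of Eef1a1, is a row of the table, at 18.1, 8.41 and 3.02 FPKM in the adult and 10.3, 0.722 and 2.84 FPKM at E16.5. The levels of these 4 genes are uncertain to that extent, and the part of shared reads in the calls was not tested.

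Other genes of translation control were followed in 9 lists of 60 genes, of which 58 were tested. None was called higher in the adult by limma, with 2 at an unadjusted p below 0.05, and 3 were called higher at E16.5 (5.17%, under the background of 8.83%). Their median change was -0.78, and all adult samples were below in 14 (24.1%, against the background of 31%). The called genes were Paip2, a repressor of the poly(A)-binding protein, at 38.9, 92.7 and 30.5 FPKM in the adult samples and 199, 292 and 190.1 FPKM at E16.5 (log2 change -2.19, SE 0.45, limma adjusted p = 0.027), Eefsec, the elongation factor for selenocysteine, at 0, 0.455 and 0 FPKM in the adult samples and 12.9, 3.62 and 10.1 FPKM at E16.5 (log2 change -2.98, SE 0.68, limma adjusted p = 0.0368), and Dph1 of diphthamide synthesis on eEF2, at 1.11e-08, 2.04e-06 and 0 FPKM in the adult samples, all practically 0, and 4.97, 5.16 and 5.38 FPKM at E16.5 (limma adjusted p = 0.0291). The calls of Eefsec and Dph1 rest on adult values at or near 0, which can be failed estimates, and are uncertain.

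Pabpc1, the main cytoplasmic poly(A)-binding protein and partner of eIF4G, stood at 12.5, 24.5 and 17.6 FPKM in the adult samples and 45.2, 49.3 and 51.6 FPKM at E16.5, without overlap and just outside the threshold (log2 change -1.42, SE 0.38, limma adjusted p = 0.0537). Atf4, whose translation depends on eIF2 alpha phosphorylation, scattered from 0 to 89.3 FPKM in the adult (0, 10.2 and 89.3 FPKM) around 43.1, 59.4 and 67.2 FPKM at E16.5 (limma adjusted p = 0.26). Of the 9 tested stress-response targets none was called by limma. In this list 2 were higher at E16.5 at an unadjusted p below 0.05 (22.2%, against 25.9% of all genes). All adult samples were below in 3 (33.3%, against 31%). Among the 13 genes of mTORC1 and its inputs none was called. An unadjusted p below 0.05 was reached by 1 higher at E16.5 (background 25.9%) and 1 higher in the adult (background 5.34%). All adult samples were below in 2 (15.4%, against 31%) and above in 1, the mTOR inhibitor Deptor (background 7.39%). Deptor stood at 15.2, 18.2 and 28.2 FPKM in the adult samples and 3.16, 8.16 and 3.04 FPKM at E16.5 (limma adjusted p = 0.0686). None of the 8 genes of termination and recycling passed limma or an unadjusted p of 0.05, and the ages overlapped in every one. Of the 9 mitochondrial translation factors none was called, with 1 in each direction at an unadjusted p below 0.05, beside the same backgrounds of 25.9% and 5.34%. The 2 eIF4E kinases and the 2 enzymes of eIF5A hypusination gave no call either, and of these only Mknk1 had an unadjusted p below 0.05.

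The labelled tissue could be checked against its markers. Over all genes tested, 2.12% were called higher in the adult and 8.83% at E16.5. All 12 genes listed for ChP epithelium were in the table and tested, with 6 called higher in the adult and 2 at E16.5. Only transthyretin (Ttr) was at 0, in all 3 E16.5 samples, against 20922 to 31302 FPKM in the adult. Because a 0 in this table can be a failed estimate, that value is not read as absence of Ttr at E16.5, and its call is uncertain. Markers of other cells were mostly the higher at E16.5. Red blood cell genes summed to 54.1 to 324 FPKM at E16.5 and 0 to 6.49 in the adult, with 2 of the 3 tested called higher at E16.5, and Hba-a1, Hba-a2, Hbb-bs and Hbb-y at 0 in every adult sample. Of these, Hba-a1 and Hbb-y were at or near 0 at E16.5 too, with a highest value of 0.163 FPKM (Hbb-y). Mesenchyme and fibroblast genes summed to 58.6 to 69.4 against 13.3 to 22 FPKM, with 1 of 6 called higher at E16.5 and Lum at 0 in the adult. At E16.5 Lum was near 0 as well, at 0.298, 0 and 0 FPKM.

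Endothelial genes came to 12.7 to 39.95 FPKM at E16.5 against 0.435 to 9.07 in the adult, and Kdr made up most of each sum. Kdr stood at 2.04, 7.75 and 0.435 FPKM in the adult samples and 15.95, 12.3 and 36.7 FPKM at E16.5. It was the 1 gene tested and was not called (limma adjusted p = 0.0809). Emcn, Plvap and Tek were at 0 in the adult and also in some E16.5 samples, with the highest value at 1.5 FPKM (Plvap). Pecam1 was above 0 only in adult replicate 2 (0.957 FPKM). For neurons and progenitors the sums were 26.9 to 114 against 0.145 to 9.88 FPKM. None of 5 was called by limma, 2 of them were at an unadjusted p below 0.05, and Dcx, Nes, Neurod1 and Stmn2 were at 0 in the adult. At E16.5 Neurod1 was at only 0.8, 0 and 0 FPKM. In E16.5 replicates 2 and 3 most of the sum was Sox2, at 25.3 and 26.4 FPKM. The neuronal genes were high in E16.5 replicate 1 alone, with Tubb3 at 36.2, 0.623 and 0.134 FPKM and Stmn2 at 25.3, 0 and 0 FPKM over the E16.5 samples. Cell cycle genes reached 43.9 to 77.7 against 0 to 31.1 FPKM, with 1 of 4 called higher at E16.5 and Mki67, Top2a and Mcm5 at 0 in the adult. At E16.5 Mcm5 was low too, at 1.78, 1.16 and 0.169 FPKM. Macrophage genes overlapped, at 0.436 to 8.48 against 0.0695 to 6.82 FPKM, with none of 3 passing limma or an unadjusted p of 0.05. The motile cilia genes summed to 1556 to 1917 FPKM at E16.5 and 248 to 379 FPKM in the adult, with 2 of 4 called higher at E16.5, among them Foxj1, whose promoter drives the tag, at 37.9, 45.8 and 62.4 FPKM in the adult samples and 208, 198 and 154 FPKM at E16.5. The sums of all these lists except ChP epithelium and macrophages were lower in every adult sample than at E16.5. Their part in the lower adult level of the translation factors was not tested.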

How the data were processed

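The authors made the deposited FPKM values from TRAP libraries (SMARTer Pico kit with ribosomal RNA depletion): single-end reads were aligned to mm10 with STAR 2.4.0 and quantified as FPKM by Cufflinks (its Cuffquant module). Which gene models it used is not given in the sources used here, and the authors' read counts were not analysed here. FPKM hold no read counts, so relative depth was estimated in genes with 1 transcript, from the spacing of their lowest values.

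The 11601 genes whose mean exceeded 1 FPKM entered limma 3.58.1 (R 4.3.3) as log2(FPKM + 1), under an intensity trend without covariates. P-values were adjusted by the Benjamini-Hochberg method over all genes tested, at a threshold of 0.05, and the adult and E16.5 groups of 3 were taken from the labels. A change on this scale understates that of low genes. On simulated data for this comparison (11601 genes, 200 of them changed), the fit recovered 3% of the 100 genes changed 4-fold and 43% of the 100 changed 16-fold, with 0 unchanged genes called. The simulation gave each gene the same spread at both ages, held no failed estimates and changed fewer genes than the 1270 called in the data. Its rates therefore need not hold for the measured values. Paralogue differences and shares within a complex were compared by exact permutation tests. Annotated positions, 50-base stretches and starts came from GENCODE and RefSeq tables of GRCm38, the build of mm10. All 64 members matched an annotated gene, and 50 a start.

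Genes named were the called members, the most abundant gene of each complex, paralogue pairs, untested members, and set pathway and sex-linked genes. Members named outside this rule, such as Eif3a, Eif3b, Eif3k, Eif2ak3, Eif4b, Eif2s1, Eif2b1, Eif5 and Eif6, and Deptor, Mknk1 and Gm6548, were chosen after their values were seen. The members and lists were chosen with earlier results of these data known. Alternatives were other pseudocounts, filters, scalings and variance models, a replicate block and leaving out each sample. All 6 columns of values were used.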

Additional observations from a re-analysis of the deposited data

How the results depend on the processing

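The negative median change of the factors and its place under that of all genes held under each alternative, with 1 exception. At a pseudocount of 0.01 the median of the factors lay 0.14 above that of all genes. The median of the factors minus that of all genes was -0.35 at a pseudocount of 1 and -0.067 at 0.1. Its place under all genes therefore depended on the pseudocount. Medians of the factors ran from -1.996 (same sum of FPKM in each sample) to -0.63 (quantile normalization), where that of all genes ran from -1.46 to 0.0132. The number of factors called higher at E16.5 moved from 4 to 30 with the same sum of FPKM, 9 with the same sum without Mir6236, 9 with sample weights and 2 at a pseudocount of 0.01. Quantile normalization gave 2 called higher in the adult, Eif2ak3 and Eif2b5. Of the 4 calls, all 4 were kept with a mean above 5 FPKM, with sample weights and with either setting of the same sum, 3 with median-ratio scaling and without a filter, 2 at a pseudocount of 0.1, without a trend and with quantile normalization, and 1 at a pseudocount of 0.01. Pathway genes called higher at E16.5 moved from 3 to 12 with the same sum, 5 without Mir6236 and 5 with sample weights, and 1 was called higher in the adult with quantile normalization. Over all genes, 246 higher in the adult and 1024 at E16.5 became 119 and 3200 with the same sum, 569 and 504 with quantile normalization, 349 and 658 with median-ratio scaling, and 158 and 949 without a trend.

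Leaving out 1 sample at a time gave 0 to 13 factors called higher at E16.5 and 0 to 1 higher in the adult, 1 to 9 pathway genes, and 349 to 1704 and 90 to 338 genes in all, where a group of 2 samples was left. The most calls came without adult replicate 2, the deepest of the adult samples, and without adult replicate 3. Of the 59 factors, 42 kept the sign of their change under each alternative, and none of the other 17 was called. Among those, apart from Eef2k, whose change was near 0 as reported, leaving out a sample changed the sign of Eif1 (-0.11 to 0.43), Eif2ak2 (-0.67 to 0.0534), Eif2s2 (-1.37 to 0.0818), Eif4ebp2 (-0.0363 to 1.42) and Eif5a2 (-1.39 to 0.70), as well as Eif6 (0.27 without adult replicate 3), Eif4enif1 (0.36 without adult replicate 1) and Eif4ebp3 (0.48 without adult replicate 3 and 0.71 without E16.5 replicate 2), and the within-sample differences of Eif1a and Eif1ax (-1.68 to 2.197), Eif4e and Eif4e2 (-0.92 to 1.18) and Eif4g1 and Eif4g3 (-0.20 to 0.49). With the same sum of FPKM, Eif1 (-0.68), Eif2ak1 (-0.39), Eif4g1 (-0.0857), Eif4g2 (-0.62), Eif4g3 (-0.34) and Eif4ebp2 (-0.27) turned negative, and Eif1 did so without Mir6236 (-0.0251). With quantile normalization Eif2s3x (0.0598), Eif2ak2 (0.14), Eif2ak4 (0.31), Eif3a (0.24), Eif4ebp3 (0.52), Eif5a2 (1.15) and Eef2kmt (0.0861) turned positive, as did Eif2ak2 (0.0497) and Eif3a (0.0821) with median-ratio scaling, Eif5a2 with sample weights (0.16) and the difference of Eif5a and Eif5a2 at a pseudocount of 0.01 (0.20). The cause was not tested for any of these beyond what each setting is built on.

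The labels number the replicates of both ages, but the numbers pair nothing that the labels name, and deviations of same-numbered samples correlated at 0.000895, 0.0439 and 0.0150 over genes. With the replicate block, 2 factors and 1 pathway gene were called higher at E16.5, 1 of the 2 factors being among the 4 calls, and 112 and 452 genes in all were higher in the adult and at E16.5. Adult replicate 1 correlated best with another number.

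After the data had been seen, 2 alternatives were added. Among genes above 0 in every sample, 3 factors were called, 2 of them among the 4, with 451 genes in all higher at E16.5. With adult replicate 2 as the only adult library, whose spread is then assumed to be that of the E16.5 samples, 4 factors were called, 1 of them among the 4, beside 1 pathway gene and 619 genes in all, and Eif4ebp2 and Eif6 turned to -1.29 and 0.37. With 3 samples an age, relative depths by read steps of 1 to 2.84 in the adult and 4.03 to 5.04 at E16.5 limit what can be seen of low factors.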

Other observations

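How unequal the subunits of eIF3 were within a sample varied more among the adult samples and overlapped between the ages. The SD over the 12 subunits on the log2(FPKM + 1) scale was 1.57, 1.03 and 2.65 in adult replicates 1, 2 and 3 and 1.07, 0.813 and 0.958 at E16.5. Eif3c was the highest subunit in every sample but adult replicate 3, where Eif3g was. The lowest was Eif3i, Eif3f and Eif3k in adult replicates 1, 2 and 3 and Eif3e, Eif3b and Eif3h at E16.5. Adult replicate 3, the shallowest sample, had the widest spread and the most members at 0.

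Eif2b5 and Eif4g1, the only factors tested whose adult samples all lay above those of E16.5, lie on the same chromosome. In GRCm38 they span chr16:20498817-20509323 and chr16:20668313-20692884, both on the + strand. Eif4a2, on the same chromosome with its annotated start in the window chr16:23107458-23107487 (+ strand), had all adult samples below.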
